A study of Mus musculus with 117 samples.

Results

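Normal intestine cells made up 8 of the 117 mouse samples of this series and 8 of its 51 samples of sorted normal cells, and they were chosen by their titles alone. They comprised 3 Prom1-positive and 5 Prom1-negative samples. The remaining 43 sorted samples came from prostate (3 Prom1-positive and 5 Prom1-negative), lung (3 and 7), liver (4 and 7), stomach (3 and 4) and uterus (4 and 3), and 66 further samples were tumours. All sorted groups carry the strain label C57BL/6 and the disease state normal. Each tissue had been dissociated to single cells and split on magnetic beads coated with an antibody to Prom1 (prominin-1, CD133), a membrane protein of apical cell protrusions, so both fractions hold whatever cell types bound or did not bind the beads. The series sets such normal cells beside tumours of Prom1 conditional mutants, and the labels give no allele, Cre driver, treatment, age or sex for the normal mice. They also name neither the stretch of gut that was taken nor the animal behind a sample, so p-values measure the spread between these samples, which may be technical.

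Each sample was hybridised to an Affymetrix array of a single colour. A value is a log2 signal, on which a difference of 1 is a factor of 2. The comparison set the mean of the Prom1-positive and Prom1-negative intestine means against the mean of the other 5 tissues, each of them likewise the mean of its 2 sort means. It asked which genes distinguish cells of normal intestine from normal cells of the other organs in the series. limma was fitted over 14081 genes, and a gene was called at a Benjamini-Hochberg adjusted p under 0.05. The median signal of an array lay between 3.63 and 4.01. Where 1 side of a comparison lay under that level, the transcript may not have been detected there, and the difference is a lower bound.

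The intestinal lining is a single sheet of epithelium that is renewed from stem cells at the base of the crypts. Most of its cells are absorptive enterocytes, whose brush border of microvilli carries digestive enzymes and transporters, and among them lie goblet, Paneth, enteroendocrine and tuft cells and intraepithelial lymphocytes. Transcription factors of the CDX, HNF4 and GATA families are known to maintain enterocyte gene expression, and Prom1 is known on stem and dividing cells of the crypt.

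The 8 intestine arrays resembled each other, with Pearson correlations across genes between 0.93 and 0.98, and their signal distributions and 3' to 5' probe ratios lay within or close to the range of the other arrays. Of the 6 sorted arrays with an upper quartile under 6, none was of intestine and 3 were of the 7 stomach arrays (lowest upper quartile 5.05), so values without these 6 arrays are given beside results against stomach that they change. The intestine samples were not alike in every gene group, however. The mean signal of 12 pancreas genes was 3.51, 5.90, 10.18, 3.76 and 7.65 in Prom1-negative samples 1, 2, 4, 5 and 6, and 8.92, 6.55 and 8.06 in Prom1-positive samples 1, 2 and 3. Thus pancreas genes were near the array median in Prom1-negative samples 1 and 5 and higher in the others, above all in Prom1-negative sample 4. Elsewhere their mean was 5.04 to 8.80 in stomach and 3.47 to 7.59 in liver, and it did not exceed 4.01 in lung, prostate or uterus. The mean of 12 stomach epithelium genes was 10.24 in Prom1-negative sample 2 and 3.82 to 6.95 in the other 7. Sample 2 alone carried the acid pump genes of parietal cells, with Atp4a at 8.66 against 2.76 to 3.53 in the others. Xist, the transcript that silences an X chromosome in female cells, was 10.06 in Prom1-negative sample 4 and 11.12 in Prom1-positive sample 2, and 3.50 to 4.34 elsewhere. The Y-linked gene Eif2s3y was 2.18 in Prom1-positive sample 2 and 6.51 in Prom1-negative sample 4, so the latter held both transcripts; the Y-linked genes were looked at after the Xist values were seen. Xist ranged from 8.92 to 11.95 in stomach and from 11.20 to 11.79 in uterus and did not exceed 5.22 in liver or prostate, so sex, as read from these transcripts, was not balanced between the tissues. The part of the pancreas, stomach and sex-linked transcripts in the results was not tested, except where values without these samples are given. Without Prom1-negative samples 2 and 4, an alternative chosen after seeing the data, 7449 genes were called (3836 higher, 3613 lower) in place of 8062.

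**Figure D1:**
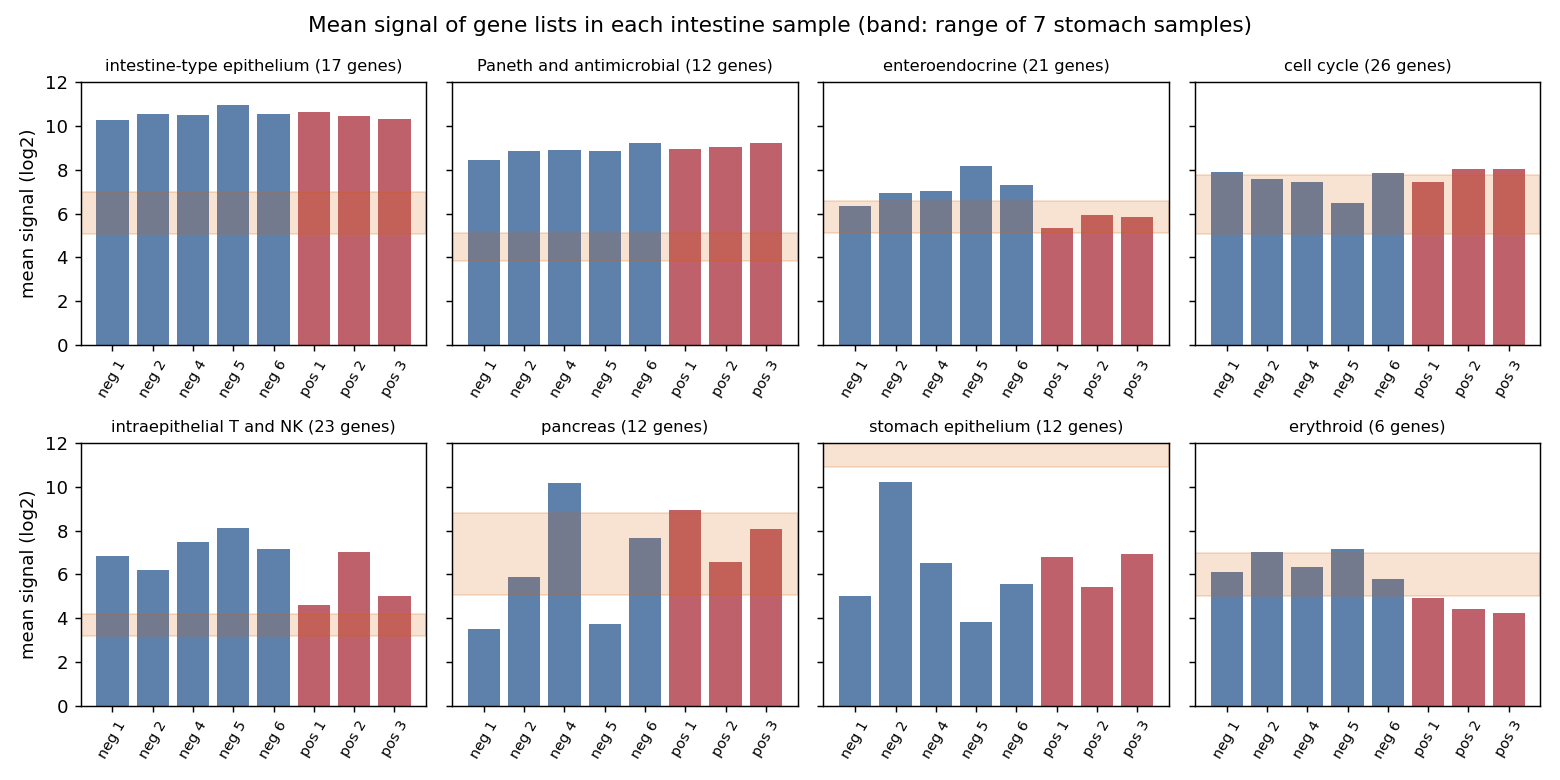
Mean log2 signal of 8 gene lists (panels, number of genes in each title) in the 8 intestine samples, Prom1-negative in blue and Prom1-positive in red, with the range over the 7 stomach samples as an orange band. Intestine-type epithelial genes stay between 10.29 and 10.95 in all 8 samples, whereas pancreas genes run from 3.51 to 10.18 and stomach genes from 3.82 to 10.24.

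Intestine cells differed from the mean of the other tissues in 8062 of 14081 genes (57.3%), 4168 of them higher (29.6%) and 3894 lower (27.7%). The median difference over all genes was 0.03. In these bulk samples, fewer cells of a type and less RNA per cell cannot be told apart, here and in every result below. The higher genes reached larger differences: 230 exceeded 4 on the log2 scale upward and 96 downward. In 357 genes (2.54%) all 8 intestine values lay above all 43 others, and in 35 (0.249%) all 8 lay below. Against each other tissue taken singly, 1091 genes (7.75%) were called higher than in all 5 and 397 (2.82%) lower than in all 5. Stomach was the nearest tissue, with a correlation across genes of 0.87 and 4783 genes called (34%, 22.2% higher and 11.7% lower), against correlations of 0.68 to 0.74 and 7112 to 8010 genes called for the other 4. The share called was 53.4% against liver (32.4% higher, 21% lower), 56.9% against lung (30.4% and 26.5%), 50.5% against prostate (24% and 26.5%) and 51% against uterus (25.1% and 25.8%). These correlations are across genes, which are not independent replicates.

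The 25 largest rises among genes without overlap were products of the intestinal surface and lumen: brush border enzymes and transporters, secreted lectins and peptides, mucins and adhesion molecules. Alpi, the intestinal alkaline phosphatase of the brush border, ranged from 12.07 to 12.84 (median 12.42) in the 8 intestine samples and from 2.33 to 7.68 in the 43 others, a difference of 8.94 (SE 0.24, adjusted p = 2.12e-32). Among the others it was 3.49 to 7.68 in stomach and did not exceed 4.02 in liver, lung, prostate or uterus. Cdh17, the cadherin that joins enterocytes, was at 11.48 to 12.16 (median 11.76) in intestine and 2.74 to 3.85 elsewhere and had the smallest adjusted p of the 25 (difference 8.53, SE 0.11, adjusted p = 5.87e-44). Stomach, at 2.74 to 3.81, gave no raised value of this gene. Fabp2, the intestinal fatty acid binding protein, reached 12.91 to 13.55 (median 13.08) in intestine, but its highest value elsewhere was 10.25, and its means in stomach (7.88) and liver (8.34) were well above those in lung, prostate and uterus (at most 3.21). Adh6a, an alcohol dehydrogenase, was 11.73 to 12.32 (median 12.04) in intestine and 2.53 to 5.27 elsewhere (difference 8.85, SE 0.14, adjusted p = 1.67e-40).

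The secreted products included Reg1, a lectin-like secreted protein, with the largest difference of all, 9.03 (SE 0.33, adjusted p = 8.63e-27), and values of 12.05 to 12.79 (median 12.43) against 2.16 to 8.06. It is also known from pancreas, and it was 12.34 and 12.79 in Prom1-negative samples 1 and 5, where pancreas genes were near the array median. Zg16, a lectin of goblet cell granules, differed by 8.96, the trefoil peptide Tff3 by 8.59 and the antimicrobial lectin Reg3b by 8.02. Guca2b and Guca2a, the hormones uroguanylin and guanylin, which act on the receptor Gucy2c of the same epithelium, differed by 7.63 and 7.21. Ccl25, the chemokine that draws CCR9-bearing lymphocytes to the small intestine, was 11.91 to 12.60 (median 12.18) in intestine and 3.46 to 6.09 elsewhere. Not every one of the 25 separated intestine from stomach: Dmbt1, a mucosal scavenger receptor, averaged 12.71 in intestine and 11.15 in stomach, a difference of 1.56 that was not called (adjusted p = 0.119). The remaining genes of the 25 were Defa39, Lypd8, Mep1b, Clec2h, Slc7a9, Itln1, Ms4a10, Cdhr2, Muc13, Slc13a1, Muc3, Olfm4 and Tm4sf5, with differences from 7.10 to 8.75. The defensin gene Defa39 has near-identical relatives, and its probe set may read several of them.

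**Figure D2:**
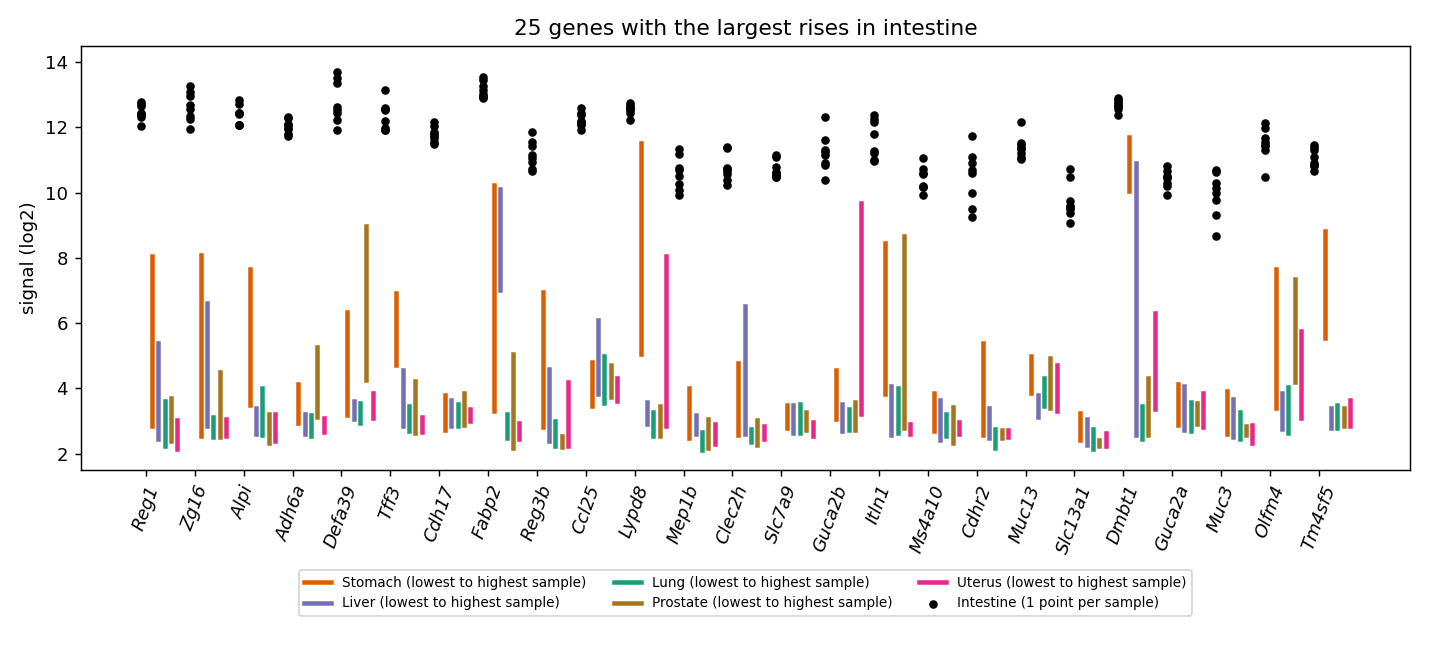
Log2 signal of the 25 genes with the largest rises in intestine: black points are the 8 intestine samples and coloured bars span the lowest to the highest sample of each other tissue. No bar reaches the intestine points of its gene, because the genes were picked for lack of overlap. Stomach bars come closest, as for Dmbt1, with a stomach mean of 11.15.

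RefSeq windows of 300 bases around the start site (250 before and 50 after, GRCm38.p6) were held for 18 of these 25 genes, for 288 of the 357 genes without overlap and for 11266 of all genes tested. Both strands were searched for the letters CAATAAA and CCATAAA, which CDX factors are known to bind, and CAAAGTNCA, which HNF4 factors are known to bind. In Fabp2 and Adh6a the match is on the opposite strand and reads TTTATTG for CAATAAA and TGCACTTTG for CAAAGTNCA; CAATAAA and CCATAAA cannot share the same bases. CAATAAA stood in 4.51% of the 288 windows and 2.77% of all windows, CCATAAA in 5.21% and 1.77%, and CAAAGTNCA in 3.47% and 1.34%. The letters AGATAA, known to bind GATA factors, stood in 7.99% and 7.15%, the TATA box letters TATAAA in 11.8% and 8.88%, and the motif searched for HNF1 in 0 windows of either set. A match is a description of letters and not a site of binding, and no test was made. The 4 windows below belong to a brush border enzyme, a fatty acid carrier, an alcohol dehydrogenase and a secreted lectin among the 25, and were picked because they hold such letters, which are in capitals. Alpi lies on chr1:87101557-87101856 (minus strand) with HNF4 letters from base -19 relative to the start site, Fabp2 on chr3:122894822-122895121 (plus) with CDX letters from -65 and HNF4 letters from -137, Adh6a on chr3:138313036-138313335 (plus) with CDX letters from -141, and Itln1 on chr1:171535245-171535544 (minus) with CDX letters from -30.
Alpi: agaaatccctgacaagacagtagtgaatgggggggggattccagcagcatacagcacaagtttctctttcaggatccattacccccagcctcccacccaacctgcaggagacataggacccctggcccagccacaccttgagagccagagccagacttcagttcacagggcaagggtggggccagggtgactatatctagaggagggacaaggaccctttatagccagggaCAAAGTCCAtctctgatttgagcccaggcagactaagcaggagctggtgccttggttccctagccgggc
Fabp2: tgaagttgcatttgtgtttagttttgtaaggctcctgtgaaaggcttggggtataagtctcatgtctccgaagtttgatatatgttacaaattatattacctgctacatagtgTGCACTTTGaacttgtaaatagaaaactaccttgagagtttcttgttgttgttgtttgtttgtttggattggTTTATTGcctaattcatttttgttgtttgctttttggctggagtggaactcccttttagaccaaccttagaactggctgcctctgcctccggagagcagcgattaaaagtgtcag
Adh6a: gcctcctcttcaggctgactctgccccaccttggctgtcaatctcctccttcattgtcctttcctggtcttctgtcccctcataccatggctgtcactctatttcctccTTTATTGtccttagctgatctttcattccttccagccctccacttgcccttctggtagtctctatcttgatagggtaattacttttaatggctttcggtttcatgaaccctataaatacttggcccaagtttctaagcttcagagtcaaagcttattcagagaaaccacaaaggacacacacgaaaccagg
Itln1: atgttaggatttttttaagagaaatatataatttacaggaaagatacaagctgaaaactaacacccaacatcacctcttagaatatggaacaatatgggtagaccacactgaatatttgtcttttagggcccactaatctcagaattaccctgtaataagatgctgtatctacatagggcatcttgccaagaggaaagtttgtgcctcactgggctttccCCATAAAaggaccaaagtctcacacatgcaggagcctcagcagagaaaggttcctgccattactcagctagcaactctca

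Markers of intestinal epithelium, in keeping with the tissue label, were high: 16 of 17 tested genes of that list were called higher and 0 lower, with a median difference of 5.25 against 0.03 over all genes, and in 13 of them all 8 intestine values lay above all others. Among the transcription factors, 14 of 16 were called higher and 0 lower (median 3.19). Cdx1, a homeobox factor of the intestinal epithelium, was 7.97, 7.66, 6.83, 7.02 and 8.01 in Prom1-negative samples 1, 2, 4, 5 and 6 and 7.60, 8.18 and 8.32 in Prom1-positive samples 1 to 3, against 2.16 to 3.91 in the 43 others (difference 5.12, SE 0.13, adjusted p = 8.95e-33). Every intestine sample exceeded every other sample. Cdx2 was lower and more uneven, at 4.85 to 7.12 (median 6.22), and overlapped the others (2.85 to 5.01), though it too was called higher than in each of the other 5 tissues (difference 2.64, SE 0.20, adjusted p = 1.77e-15). Hnf4a was shared with other endoderm-derived tissues, with means of 11.23 in intestine, 10.21 in liver and 9.10 in stomach and at most 3.39 elsewhere. Its relative Hnf4g separated intestine from all of them, at 6.81 to 7.69 (median 7.12) against 2.36 to 3.39, as did Vdr, the vitamin D receptor, at 10.31 to 10.77 (median 10.54) against 2.86 to 6.53. Klf4, a factor of differentiated epithelium, averaged 9.53 in intestine and 10.32 over the others and was not called (adjusted p = 0.0633), and neither was Maf (difference 0.10, adjusted p = 0.845).

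Gata6 and Gata4 averaged 9.42 and 7.33 in intestine and 9.29 and 7.64 in stomach, differences that were not called (adjusted p = 0.807 and 0.486). Of the 14 genes common to epithelia, 12 were called higher against the 5 tissues. Against stomach 3 were called higher and 2 lower, where 22.2% and 11.7% of all genes were. Without the arrays of low upper quartile 1 was called higher and 2 lower. Epcam, an adhesion molecule of epithelial cells, was 12.09 to 12.30 (median 12.20) in intestine and at most 11.78 in any other sample (difference 3.38, SE 0.23, adjusted p = 5.56e-17), the one gene of that list without overlap. Cldn15 and Cldn7, claudins of the tight junction, averaged 10.06 and 11.61 in intestine against 3.71 and 7.21 in stomach. Cldn4 was uneven: it ranged from 4.56 to 9.54 (median 6.71) in intestine and averaged 10.20 in prostate and 9.69 in uterus, and it was not called (adjusted p = 0.352).

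**Figure D3:**
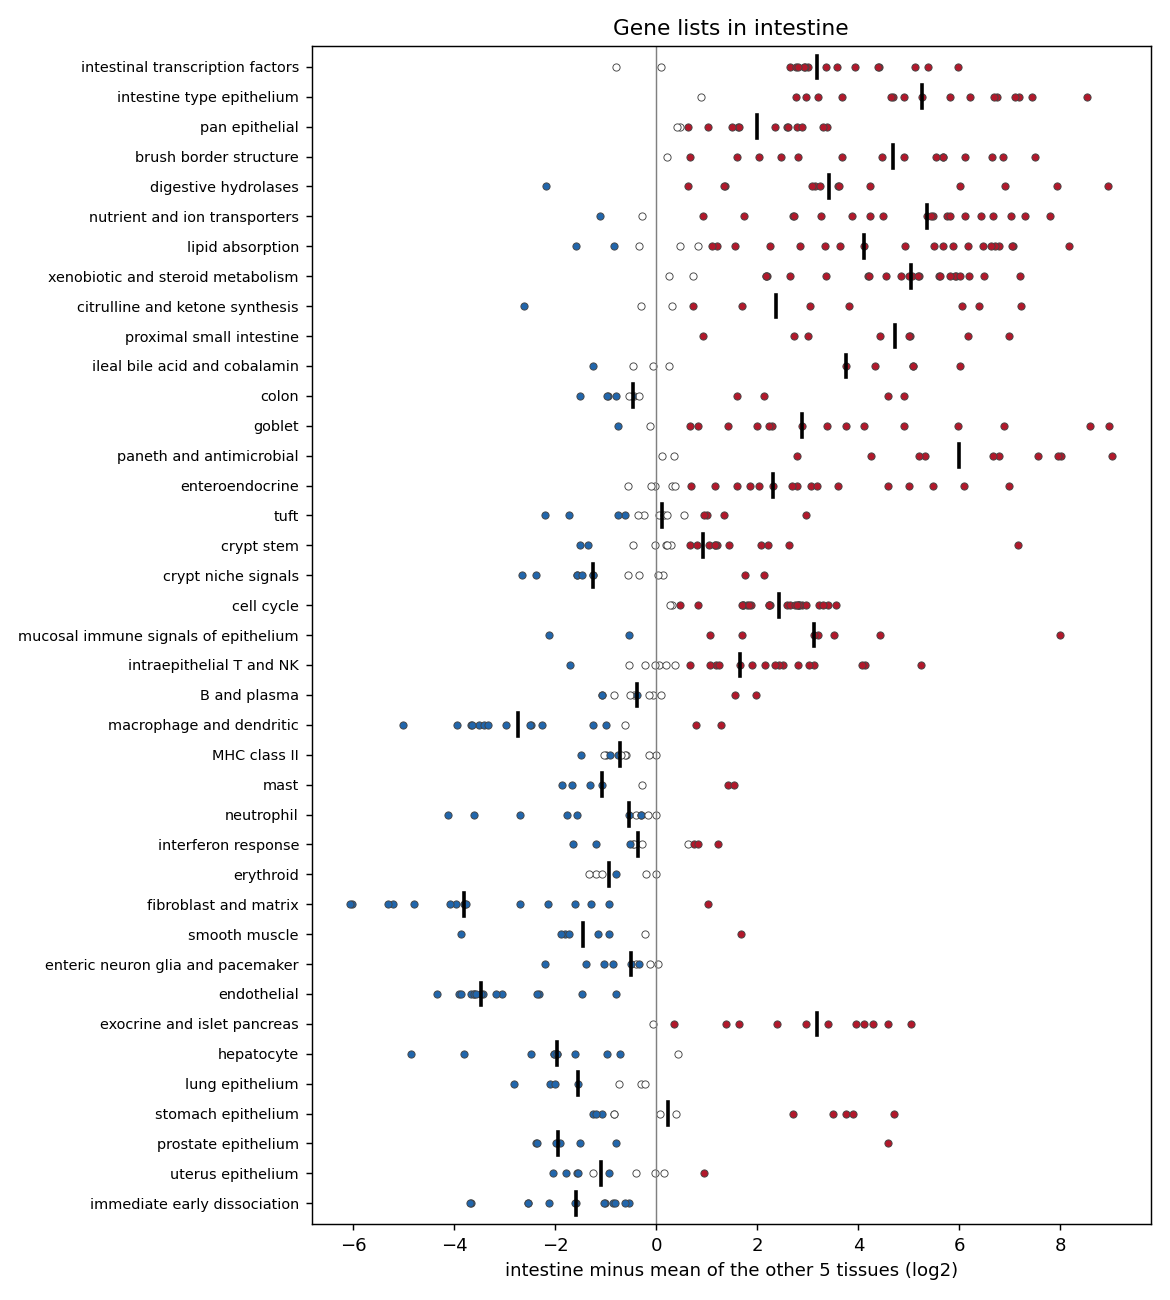
Difference between intestine and the mean of the other 5 tissues (log2, horizontal axis) for each tested gene of 39 lists (rows); red points were called higher, blue points called lower and open points not called, and a black tick marks the median of the list. Epithelial, absorptive, Paneth and cell cycle lists lie to the right of 0, with medians from 2.0 to 5.99, and fibroblast, endothelial and macrophage lists to the left, with medians of -3.79, -3.46 and -2.74.

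Genes of absorption were mostly called higher. 15 of 16 brush border structure genes, 13 of 14 digestive hydrolases, 19 of 21 transporters and 20 of 25 lipid absorption genes were called higher, with median differences of 4.69, 3.42, 5.36 and 4.11. Vil1, which encodes villin, the actin bundling protein of microvilli, was 11.07 to 11.83 (median 11.20) in intestine against 2.73 to 9.55 in the others (difference 6.87, SE 0.20, adjusted p = 5.62e-31). Stomach was intermediate, with a mean of 8.63, while liver, lung, prostate and uterus averaged at most 3.50. Cdhr2, Cdhr5, Ush1c, Myo7b and Anks4b, whose products form the complex that links microvillus tips, all had 8 intestine values above all 43 others, with differences from 4.48 to 7.49. Within intestine Cdhr2 ranged widely, from 9.26 to 11.74, lowest in Prom1-positive samples 2 and 3 (9.26 and 9.52) and highest in Prom1-negative sample 5. Ezr, the membrane linker ezrin, was high in every tissue but liver and was called lower than in stomach (means 10.84 and 11.53, adjusted p = 0.0159).

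Sugar-splitting and peptide-splitting enzymes of the surface were high throughout. Mgam (maltase-glucoamylase) was 10.19 to 11.39 (median 10.85) in intestine against 2.61 to 7.95 elsewhere, and Treh (trehalase) 7.94 to 10.75 (median 9.25) against 2.37 to 5.40. Mep1b, a subunit of the peptidase meprin, differed by 7.93 (SE 0.14, adjusted p = 3.51e-39), with all 8 values above all others, and the partner subunit Mep1a by 3.14. Tmprss15, the enteropeptidase that activates trypsinogen, was uneven: 4.14, 7.02, 6.89, 7.77 and 5.70 in Prom1-negative samples 1, 2, 4, 5 and 6 and 6.92, 3.84 and 4.89 in Prom1-positive samples 1 to 3. Its lowest intestine values still exceeded all others (2.24 to 3.33). The exception was Naalad2, a peptidase, which was at 2.54 to 3.29 (median 2.92) in intestine and averaged 7.76 in uterus (difference -2.19, SE 0.22, adjusted p = 1.17e-11).

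Transporters of the apical membrane rose with the enzymes. Slc5a1, the sodium-glucose transporter, was 10.25 to 11.56 (median 10.79) in intestine and 2.52 to 8.23 elsewhere (difference 6.66, SE 0.18, adjusted p = 5.66e-32), with prostate next at 7.23. Slc2a2, the glucose exit carrier of enterocytes and hepatocytes, averaged 10.52 in intestine and 10.19 in liver, a difference that was not called (adjusted p = 0.466). Slc15a1 (peptides), Slc6a19 and Slc7a9 (amino acids), Slc13a1 (sulphate) and Npc1l1 (cholesterol) each had all 8 intestine values above all others, with differences of 5.49, 6.42, 7.79, 7.30 and 6.48. The calcium channel Trpv6 did not follow them, at 3.27 to 5.77 (median 4.92) in intestine and means of 7.60 in uterus and 7.02 in prostate (adjusted p = 0.335), whereas the calcium carrier S100g was at 10.17 to 11.57 (median 11.01; difference 5.43, SE 0.30, adjusted p = 2.81e-20).

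Proteins that pack absorbed fat into lipoproteins were shared in part with liver. Apoa4, an apolipoprotein of chylomicrons, averaged 11.95 in intestine and 9.0 in liver, and Mttp, which loads lipid onto apolipoprotein B, 11.45 and 9.09; Mttp had all 8 intestine values above all others. Apoa1 averaged 12.66 in intestine and 12.98 in liver and was not called between them (adjusted p = 0.359), whereas Apoc3, which slows the clearance of lipoproteins, was called lower than in liver (11.56 against 12.71, adjusted p = 2.79e-05). Mogat2 and Dgat1, which rebuild triglyceride in enterocytes, averaged 10.21 and 10.90 in intestine and at most 4.80 and 8.22 in any other tissue. 2 lipid genes were called lower: Cd36, a fatty acid receptor (difference -1.59, SE 0.41, adjusted p = 0.000855), which was highest in lung at 11.57, and Scarb1, a lipoprotein receptor (-0.83, SE 0.28, adjusted p = 0.0105). Scarb1 was not called without Prom1-positive sample 2 (difference -0.46, adjusted p = 0.187). Of 24 genes of drug and steroid metabolism 22 were called higher (median 5.03) and 0 lower. Cyp3a11 averaged 11.85 in intestine and 12.65 in liver and at most 2.84 elsewhere, and Cyp2b10 10.14 in intestine, 6.84 in lung and 5.81 in liver. Both belong to families of close paralogues, so their probe sets may read more than 1 gene.

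The enzymes that make citrulline from glutamine and proline were high in intestine while the next enzyme was not. In 7 of 10 genes of citrulline and ketone synthesis the call was higher and in 1 lower (median 2.37). Cps1, the carbamoyl phosphate synthetase that starts the urea cycle, was 12.06, 11.84, 11.86, 11.23 and 12.28 in Prom1-negative samples 1, 2, 4, 5 and 6 and 11.95, 11.90 and 12.49 in Prom1-positive samples 1 to 3, and 8.80 to 12.66 in liver. Intestine and liver overlapped and were not called apart (difference 0.27, adjusted p = 0.499), and both lay far above stomach, lung, prostate and uterus, with means from 2.78 to 3.67. Otc, ornithine transcarbamylase, showed the same order, at 10.45 to 11.15 (median 10.92) in intestine and 8.93 to 11.56 in liver, as did Nags, which makes the activator of Cps1, with means of 7.97 and 7.39. Aldh18a1, which makes pyrroline carboxylate on the way to ornithine, was above all other samples (7.11 to 8.09, median 7.85, against 3.13 to 6.50), and Oat, ornithine aminotransferase, averaged 11.29 against at most 10.16. Ass1, the enzyme that joins citrulline to aspartate, was 2.74, 3.32, 3.6, 3.39 and 3.46 in the Prom1-negative and 3.57, 3.12 and 2.89 in the Prom1-positive samples, all under the array median, and 7.95 to 10.91 in liver (difference from the other 5 tissues -2.62, SE 0.29, adjusted p = 1.48e-10). The next enzyme, Asl, averaged 7.07 in intestine and 9.62 in liver and was not called against the mean of the 5 tissues (adjusted p = 0.317). Arg2, the mitochondrial arginase, was 11.80 to 12.44 (median 12.02) in intestine against 2.92 to 9.80 in the others, and 4.10 on average in liver (difference 6.04, SE 0.26, adjusted p = 3.24e-24).

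**Figure D4:**
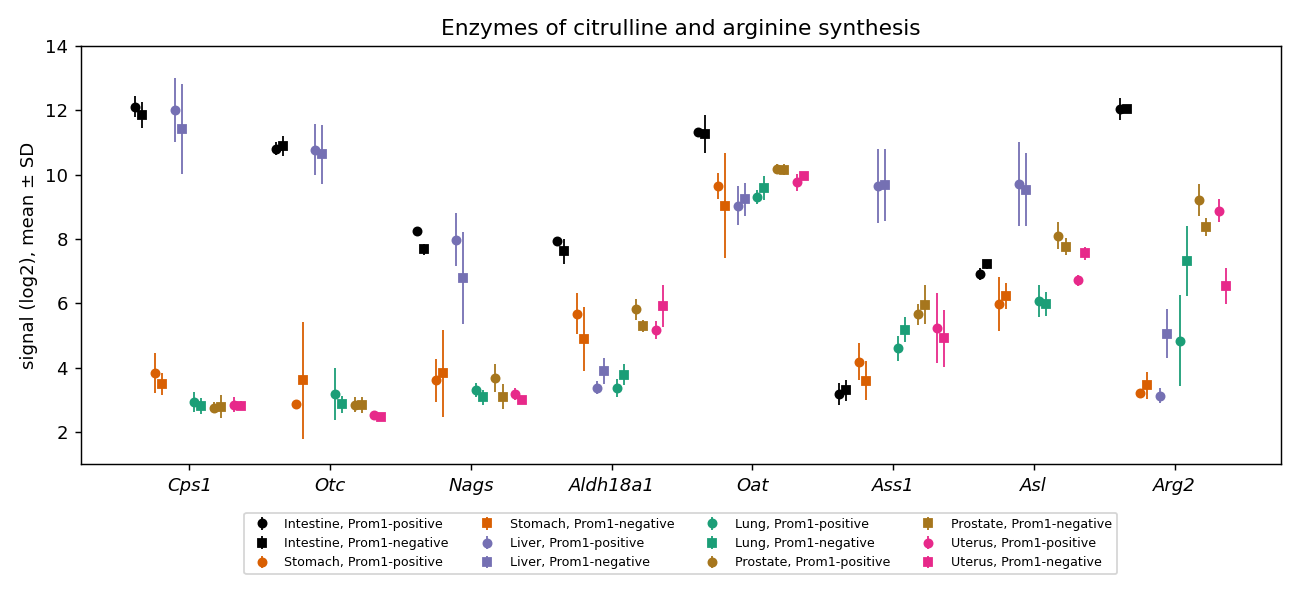
Log2 signal (mean ± SD over samples) of 8 enzymes of citrulline and arginine synthesis in the Prom1-positive (circles) and Prom1-negative (squares) cells of 6 tissues, intestine in black. Intestine and liver stand together for Cps1, Otc and Nags, and apart for Ass1 (intestine mean 3.25, liver mean 9.67) and Arg2 (12.05 and 4.10).

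Because the labels name no segment, genes of known regions were read out in each sample. All 8 tested genes of the proximal small intestine were called higher (median 4.72). Pdx1, a homeobox factor of duodenum and pancreas, was 7.22 to 8.43 (median 8.02) in intestine, with the lowest value in Prom1-negative sample 1, and it was called higher than in stomach (mean 6.40, difference 1.52, SE 0.28, adjusted p = 2.39e-05). In Prom1-negative samples 1 and 5, where pancreas genes were near background, it was 7.22 and 8.43. Onecut2 was 7.74 to 8.54 (median 8.39) and Gip, the incretin hormone of the upper small intestine, 9.42 to 13.11 (median 11.14; difference 6.99, SE 0.31, adjusted p = 7.45e-24). Cybrd1, the duodenal iron reductase, was the weakest of the list, at 3.63, 7.62, 7.95, 7.07 and 4.42 in Prom1-negative samples 1, 2, 4, 5 and 6 and 4.72, 4.18 and 3.24 in Prom1-positive samples 1 to 3 (difference 0.92, SE 0.39, adjusted p = 0.0393). Prom1-negative samples 2, 4 and 5 were at 7.07 or above and the other 5 at 4.72 or below. Its call was lost without any one of Prom1-negative samples 2, 4 and 5, Prom1-positive samples 1 and 2 and stomach Prom1-positive sample 1 (Cybrd1 difference 0.69 to 0.89, adjusted p = 0.0521 to 0.147), and the difference was -0.049 in Prom1-positive cells alone.

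Of 9 genes of bile acid and cobalamin handling, 5 were called higher and 1 lower, but the genes most bound to the ileum were at background. Fabp6, the ileal bile acid binding protein, was 2.77 to 3.35 (median 2.93) and Slc10a2, the ileal bile acid uptake carrier, 2.23 to 2.79 (median 2.64), neither of them called (adjusted p = 0.756 and 0.201). The exit carrier subunits Slc51a and Slc51b were high, at 7.98 to 9.07 (median 8.34) and 6.68 to 8.86 (median 7.59), as were Cubn and Amn, which form the receptor for intrinsic factor with cobalamin (5.64 to 8.70, median 6.33, and 7.70 to 8.42, median 7.87). Of 12 colon genes, 4 were called higher and 5 lower (median -0.46). Car1, carbonic anhydrase 1 of colon epithelium, was 2.70 to 3.15 (median 2.84), and the posterior Hox genes Hoxb13 and Hoxd13 were 2.82 to 3.57 (median 3.23) and 2.57 to 3.12 (median 2.75), all at or under the array median. Retnlb, a goblet cell product also known from colon, was 10.08, 10.55, 11.01, 8.93 and 3.82 in Prom1-negative samples 1, 2, 4, 5 and 6 and 10.40, 5.04 and 3.93 in Prom1-positive samples 1 to 3. It was at 8.93 or above in 5 samples and at 5.04 or below in 3, across both sorts, yet above all 43 other samples, which reached 3.17 (difference 4.91, SE 0.47, adjusted p = 2.65e-12).

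**Figure D5:**
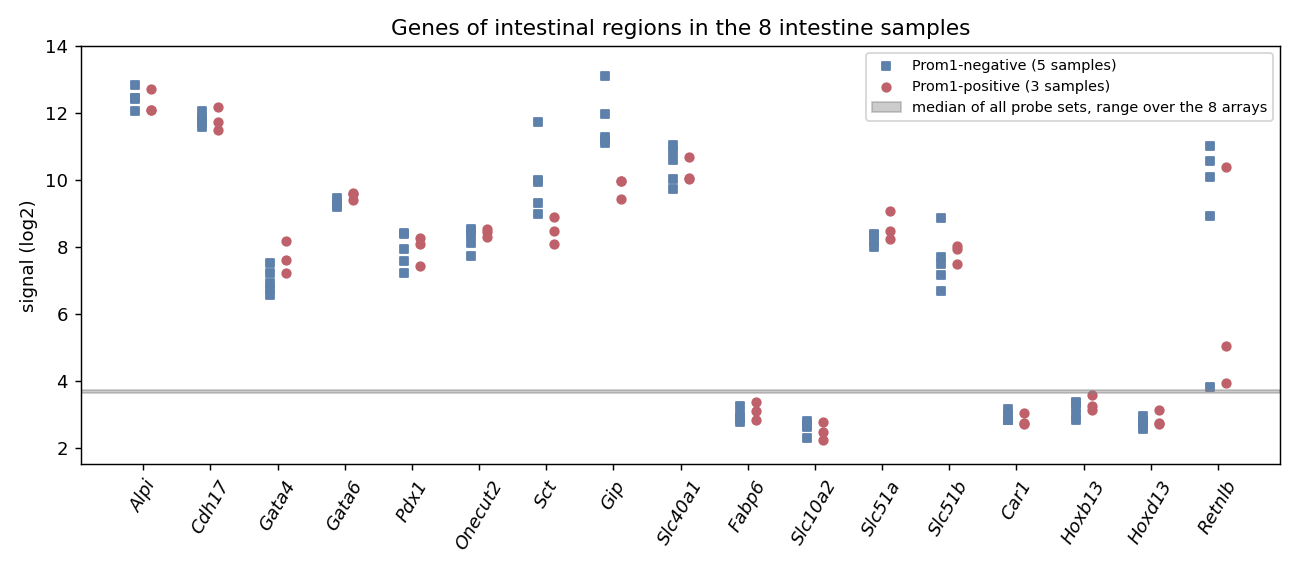
Log2 signal of 17 genes of intestinal epithelium and of its regions, in the 5 Prom1-negative (blue squares) and 3 Prom1-positive (red circles) intestine samples, with the range of array medians as a grey band. Proximal genes such as Pdx1, Onecut2 and Gip lie above the band in all 8 samples, Fabp6, Slc10a2, Car1, Hoxb13 and Hoxd13 lie at or under it, and Retnlb splits from 3.82 to 11.01.

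Secretory lineages rose as well. Of 12 Paneth and antimicrobial genes, 10 were called higher, 0 lower, and 8 had all 8 intestine values above all others (median 5.99). Itln1, the lectin intelectin-1 of Paneth and goblet cells, was 10.97 to 12.39 (median 11.53) against 2.57 to 8.68 (difference 7.55, SE 0.35, adjusted p = 6.83e-23). Defa21, a Paneth cell defensin, was 2.44, 7.91, 2.49, 6.84 and 8.75 in Prom1-negative samples 1, 2, 4, 5 and 6 and 6.68, 9.21 and 9.04 in Prom1-positive samples 1 to 3. It was at background in Prom1-negative samples 1 and 4 and at 6.68 or above in the other 6, while its paralogue Defa39 was at 11.92 to 13.70 (median 12.59) in all 8. Defensin probe sets may read several near-identical genes. The probe set of Lyz1, the Paneth cell lysozyme, was at 3.31 to 4.39 (median 3.69), whereas that of the close paralogue Lyz2 was at 11.59 to 12.60 (median 12.24), so how these 2 probe sets divide the 2 genes is uncertain. Goblet cell genes were called higher in 15 of 17 and lower in 1 (median 2.89). Against stomach, however, 8 were called lower and 8 higher (7 and 8 without the arrays of low upper quartile). Tff3 (12.29 against 5.70 in stomach), Zg16 (12.56 against 5.63) and Fcgbp (11.38 against 6.48) were on the intestinal side. Agr2, a disulphide isomerase of mucus cells (11.10 against 12.43), and the secretory factor Spdef (5.82 against 8.30) were on the gastric side. Atoh1, the factor that commits crypt cells to secretory fates, was 5.20 to 7.47 (median 6.02) in intestine and 2.33 to 3.25 elsewhere.

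Enteroendocrine genes were called higher in 16 of 21 and lower in 0 (median 2.31). Against stomach 7 were called higher and 6 lower (7 and 8 without the arrays of low upper quartile). Cck, the hormone cholecystokinin, was 9.09, 9.31, 9.82, 11.02 and 9.95 in Prom1-negative samples 1, 2, 4, 5 and 6 and 8.09, 8.41 and 7.81 in Prom1-positive samples 1 to 3, against 2.26 to 6.64 in all other samples (difference 6.09, SE 0.22, adjusted p = 2.53e-27). All 8 values exceeded all others, with Prom1-negative sample 5 highest and the Prom1-positive samples lowest. Gip, Sct (secretin) and Gcg (glucagon-like peptides) had no overlap either, with differences of 6.99, 5.0 and 4.59. Ghrl, the hunger hormone ghrelin of the stomach, averaged 7.87 in intestine and 10.36 in stomach, and was called lower than in stomach (difference -2.48, SE 0.28, adjusted p = 8.93e-10). Prom1-negative sample 5 had the highest mean over the list, 8.20, and the lowest mean over cell cycle genes, 6.48 against 7.44 to 8.03 in the other 7. The tuft cell genes gave no common direction, with 4 of 14 called higher and 4 lower (median 0.11), near the shares over all genes (29.6% and 27.7%). The count called lower was 2 without Prom1-positive sample 1. Dclk1 was 2.33 to 3.78 (median 2.95) and Rgs13 4.19 to 7.39 (median 6.56).

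Crypt genes were mixed. Of 18 stem cell genes 11 were called higher and 2 lower (median 0.93). Against stomach 6 were called higher and 5 lower, where 22.2% and 11.7% of all genes were. Without the arrays of low upper quartile 5 were called higher and 6 lower than in stomach. Olfm4, a secreted glycoprotein of crypt base stem cells, was 10.47 to 12.14 (median 11.51) in intestine and 2.64 to 7.67 elsewhere (difference 7.16, SE 0.31, adjusted p = 6.86e-24), lowest in Prom1-negative sample 5. Lgr5, the R-spondin receptor that marks crypt stem cells, was 5.77, 5.69, 5.64, 4.85 and 6.14 in Prom1-negative samples 1, 2, 4, 5 and 6 and 5.37, 6.90 and 7.5 in Prom1-positive samples 1 to 3, and 3.76 to 9.28 in stomach. Intestine and stomach overlapped, and the mean was called lower in intestine (6.11 against 7.28, adjusted p = 0.00667), although it was higher than the mean of all 5 tissues (difference 1.20, SE 0.26, adjusted p = 0.000114). Ascl2, a Wnt-responsive factor of the same cells, was 4.31 to 7.06 (median 6.13) in intestine and higher than the mean of the 5 tissues (difference 2.64, SE 0.20, adjusted p = 1.25e-15), but its call against stomach (adjusted p = 0.0154) was lost without the arrays of low upper quartile (adjusted p = 0.135). Sox9 was not called against the 5 tissues (means 6.39 and 6.20, adjusted p = 0.457) and was lower than in stomach (8.19).

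Prom1 itself, the protein used for sorting, was 8.24, 8.47, 8.09, 8.82 and 9.70 in Prom1-negative samples 1, 2, 4, 5 and 6 and 7.88, 9.64 and 10.07 in Prom1-positive samples 1 to 3. The sorts overlapped, and Prom1-positive sample 1 was the lowest of the 8. By tissue mean the order was stomach (11.03), uterus (10.64), prostate (9.30), intestine (8.93), lung (6.55) and liver (3.05). Against the 5 tissues together it was 0.82 higher, a direction that turned without liver (-0.45 for Prom1). Intestine was not called apart from prostate (adjusted p = 0.302) and was called apart from the other 4. Cell cycle genes were called higher in 24 of 26 and lower in 0 (median 2.43), and 13 were also called higher than in stomach (1 higher and 1 lower without the arrays of low upper quartile). Top2a, a topoisomerase of dividing cells, was 7.98 to 9.46 (median 9.13) in intestine and 3.08 to 9.10 elsewhere (difference 2.88, SE 0.29, adjusted p = 1.64e-11), and Mki67 averaged 9.18 in intestine and 9.01 in stomach. E2f1 and Foxm1 were not called, with means of at most 4.68 and 4.0 in any tissue. Signals of the niche lay mostly the other way, with 7 of 13 called lower and 2 higher: the mesenchymal ligands Bmp4 and Wnt5a averaged 3.13 and 2.70, while the epithelial ligands Dll1 and Ihh were higher than the mean of the other tissues (differences 2.13 and 1.76).

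Genes of T and NK cells, which include the intraepithelial lymphocytes, were at levels that differed between intestine samples. Of 23 T and NK cell genes, 16 were called higher and 1 lower (median 1.67). Against stomach 19 were called higher (18 without the arrays of low upper quartile). The mean over the list was 4.62 to 8.14 in intestine and overlapped lung (4.61 to 7.94) and liver (3.49 to 7.79), and 0 genes had all 8 intestine values above all others; the cell type behind these transcripts was not tested. Gzma, a granzyme of cytotoxic lymphocytes, was 10.94, 10.07, 10.13, 11.70 and 11.20 in Prom1-negative samples 1, 2, 4, 5 and 6 and 7.69, 11.34 and 9.76 in Prom1-positive samples 1 to 3, and 2.49 to 10.02 in the 43 others (difference 5.23, SE 0.37, adjusted p = 1.75e-16). Itgae, the integrin that binds lymphocytes to epithelial E-cadherin, was 7.66, 6.71, 7.80, 9.29 and 7.70 and 4.61, 7.39 and 5.13 in the same order (difference 2.5, SE 0.31, adjusted p = 2.37e-09). Both were lowest in Prom1-positive samples 1 and 3, whose mean over the whole list was 4.62 and 5.02, against 6.22 to 8.14 in the other 6. Cd8a averaged 6.32 and was called higher than in each other tissue, while Cd8b1 averaged 3.83 and was not called against their mean (adjusted p = 0.291). Epithelial genes that address lymphocytes also rose in 7 of 9, among them Ccl28, Ccl20 and Pigr, the carrier of IgA across the epithelium (differences 4.42, 3.19 and 3.52). Cd1d1, which presents lipids to NKT cells, was called lower (means 4.64 in intestine and 10.45 in liver).

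Macrophage and dendritic cell genes were called lower in 13 of 16 and higher in 2 (median -2.74). Against stomach 0 of them were called lower and 3 higher (median 0.58), so the low signal was shared with stomach. C1qa, a complement subunit made by macrophages, was 2.96, 4.23, 8.47, 4.41 and 3.92 in Prom1-negative samples 1, 2, 4, 5 and 6 and 6.27, 3.63 and 7.42 in Prom1-positive samples 1 to 3, so Prom1-negative sample 4 and Prom1-positive samples 1 and 3 stood above the rest. It averaged 9.63 to 10.58 in prostate, lung, uterus and liver and 4.41 in stomach, and its difference from the 5 tissues was -3.64 (SE 0.46, adjusted p = 5.26e-09). The 2 genes called higher than the mean of the 5 tissues were Lyz2 and Mertk. Mertk, a receptor for dying cells, was 8.16 to 9.60 (median 8.44) in intestine (difference 0.78, SE 0.21, adjusted p = 0.00111). Neither Lyz2 nor Mertk was called without stomach in the reference, where the difference of Mertk was 0.01 (adjusted p = 0.984) and that of Lyz2 0.36 (adjusted p = 0.389). MHC class II genes were called lower in 4 of 10 and higher in 0 against the 5 tissues. Yet 7 were called higher than in stomach (6 without the arrays of low upper quartile). The count called lower was 2 without Prom1-negative sample 1 or 2 or Prom1-positive sample 2, 8 without Prom1-negative sample 5 and 7 without lung Prom1-positive sample 1; H2-Aa was 8.40 to 11.23 (median 9.87) in intestine and averaged 8.03 in stomach and 12.16 in lung. Of 11 B cell and plasma cell genes 2 were called higher and 3 lower. Jchain, the joining chain of secreted antibodies, was 10.57, 11.70, 13.41, 12.60 and 12.30 in the Prom1-negative and 9.57, 6.64 and 8.10 in the Prom1-positive samples, highest in Prom1-negative sample 4 (difference 1.97, SE 0.39, adjusted p = 3.72e-05), and Ighm was 7.46 or above in Prom1-negative samples 4, 5 and 6 and 4.51 or below in the other 5. Neutrophil genes were called lower in 7 of 11 and higher in 0, and mast cell genes lower in 4 and higher in 2 of 7. Interferon response genes were called lower in 3 and higher in 3 of 10, and erythroid genes lower in 1 of 6. Over all genes 29.6% were called higher and 27.7% lower, so the B cell, interferon response and erythroid counts lay near or under these shares. The erythroid count was 2 to 4 without any one of 21 samples, and 4 without Prom1-negative intestine sample 2 or 5, lung Prom1-positive sample 4 or stomach Prom1-negative sample 1. The haemoglobin probe set Hba-a1 was 11.46, 13.26, 11.51, 13.34 and 10.90 in the Prom1-negative and 8.23, 5.75 and 5.26 in the Prom1-positive samples, without overlap between the sorts.

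Stromal and vascular genes formed the main fall against the mean of the 5 tissues, and stomach shared much of it. All 15 endothelial genes were called lower (median -3.46), 15 of 16 fibroblast and matrix genes (median -3.79) and 6 of 8 smooth muscle genes (median -1.44), while 1 gene in each of the last 2 lists was called higher. Cdh5, the cadherin of vascular endothelium, was 2.70 to 3.50 (median 2.79) in intestine, under the array median, and averaged 2.94 in stomach, 6.27 in uterus and 9.65 in lung (difference -3.6, SE 0.38, adjusted p = 6.18e-11). Sparc, a matrix glycoprotein of stromal cells, was 2.81, 4.38, 5.68, 3.30 and 2.85 in Prom1-negative samples 1, 2, 4, 5 and 6 and 4.39, 2.83 and 3.93 in Prom1-positive samples 1 to 3, against 3.17 to 12.70 elsewhere (difference -6.06, SE 0.35, adjusted p = 3.31e-19). Prom1-negative samples 2 and 4 and Prom1-positive sample 1 were its highest, and intestine as a whole was called lower than each other tissue, for stomach (5.30) no longer so without the arrays of low upper quartile (Sparc adjusted p = 0.211). Fn1 (fibronectin) and Dcn (decorin) were likewise called lower than in each other tissue, with differences of -6.01 and -5.31 from their mean, and Dcn too lost its call against stomach without those arrays (adjusted p = 0.861). Against stomach 6 of 16 fibroblast genes were called lower, and 1 without those arrays. Of the 15 endothelial genes 2 were called lower than in stomach and 0 higher (1 lower without those arrays). Of the 8 smooth muscle genes 1 was called lower and 1 higher (0 lower without those arrays). Over all genes 11.7% were called lower than in stomach. The genes that went the other way were Mylk, a myosin light chain kinase that epithelial cells also express (8.87 to 10.12, median 9.62, in intestine, difference 1.67, SE 0.36, adjusted p = 0.000104), and Fbln1, a matrix protein (6.96 to 9.31, median 7.64, difference 1.02, SE 0.37, adjusted p = 0.0155). Fbln1 was not called without Prom1-positive sample 1 (difference 0.77, adjusted p = 0.109), and its difference was -0.042 in Prom1-negative cells alone. Neuron, glia and pacemaker genes were called lower in 6 of 9 and higher in 0 (median -0.49), where 27.7% of all genes were called lower. Their list mean was 3.24 to 3.48 in intestine, near the array median, and 3.22 to 3.52 in liver. It was at most 4.27 in stomach, lung and uterus, and 4.69 to 7.16 in prostate. Against liver 0 were called lower, and against stomach 2 (1 without the arrays of low upper quartile). The count of 6 lay between 1 and 7 over the alternatives.

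The 10 largest falls without overlap included genes of vessels and stroma and genes with wider expression. Cavin2, a coat protein of caveolae, was 2.66 to 3.90 (median 3.21) in intestine and 4.5 to 12.49 elsewhere (difference -5.15, SE 0.35, adjusted p = 6.13e-17). Rhoj, a small GTPase of endothelial cells, was 2.69 to 3.70 (median 3.53) against 3.84 to 11.19 (difference -5.10, SE 0.33, adjusted p = 7.19e-18). Anxa5, the phospholipid-binding annexin A5, was measured well above the array median on both sides, at 5.86 to 7.68 (median 6.48) in intestine and 8.02 to 11.74 elsewhere (difference -3.86, SE 0.21, adjusted p = 1.4e-20), and so was Hspb1, a small heat shock protein, at 4.75 to 6.20 (median 5.21) and 6.84 to 12.75 (difference -4.87, SE 0.34, adjusted p = 9.36e-17). The others were Sgce, Il6ra (the interleukin 6 receptor), Jcad, Meis1 and Mitf (transcription factors) and Tns1 (tensin 1), with differences from -4.06 to -3.75. That every intestine sample lay below every sample of the 5 other tissues is the rule by which the 10 were picked. All 10 were called lower than stomach, which that rule makes likely. Immediate early genes, which respond within minutes to stimuli such as tissue dissociation, were called lower in 13 of 13 (median -1.58). Over all genes 27.7% were called lower. Against stomach 4 were called lower and 0 higher (median -0.33, and -0.55 without the arrays of low upper quartile). Against liver 6 were called lower and 1 higher. Ier3 averaged 6.33 in intestine and 7.82 to 11.87 in stomach, prostate, uterus and lung. Fos averaged 11.28 against 11.61 to 12.46 in the same tissues and was not called against stomach (adjusted p = 0.304). Liver was at 7.10 for Ier3 and, lower than intestine, at 10.84 for Fos. The call of Fos against the 5 tissues was lost without Prom1-positive sample 1 (difference -0.47, adjusted p = 0.0506).

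Among genes of other organs, 10 of 11 hepatocyte, 4 of 7 lung epithelium, 7 of 8 prostate and 5 of 10 uterus genes were called lower. Over all genes 27.7% were. The organ of each list is part of the mean of the 5 tissues, so such calls are largely built into the comparison. Against stomach alone 2 hepatocyte, 1 lung epithelium, 1 prostate and 1 uterus gene were called lower. In the same comparison 1 prostate and 1 uterus gene were called higher. Spink1, a trypsin inhibitor of the prostate list that is also known from pancreas and gut, was called higher instead, at 9.41 to 11.13 (median 10.54) in intestine, with 9.41 and 11.13 in Prom1-negative samples 1 and 5, 12.93 on average in prostate and 3.22 in stomach (difference 4.59, SE 0.51, adjusted p = 2.16e-10). Pancreas genes were called higher in 11 of 12 (median 3.18), and in 9 of 12 without Prom1-negative samples 2 and 4. Amy2a5, pancreatic amylase, was 2.77, 8.40, 12.54, 3.68 and 10.66 in Prom1-negative samples 1, 2, 4, 5 and 6 and 11.55, 9.48 and 10.92 in Prom1-positive samples 1 to 3, and 4.56 to 11.26 in the stomach samples. It was at background in Prom1-negative samples 1 and 5, and intestine and stomach overlapped; 0 pancreas genes were called higher than in stomach and 1 lower. Of the 10 genes with the largest spread among the 8 samples, 7 were pancreatic (Amy2a5, Prss2, Cpb1, Cela3b, Cela2a, Try5 and Ctrb1) and the others were Xist, Gkn2 and Retnlb. The intestine-type list did not move with them: its mean was 10.29 and 10.95 in Prom1-negative samples 1 and 5 and 10.49 in Prom1-negative sample 4. Stomach epithelium genes were split, with 5 of 12 called higher and 4 lower against the 5 tissues (2 lower without Prom1-negative sample 5 and 6 without Prom1-negative samples 2 and 4), and all 12 called lower than in stomach (median -5.63). The 5 higher genes were Gkn1, Gkn2, Gkn3, Tff1 and Tff2, products of gastric surface and neck mucous cells and of duodenal glands; Tff2 was 6.42, 12.16, 10.96, 5.10 and 8.22 in the Prom1-negative and 9.87, 8.55 and 10.21 in the Prom1-positive samples, lowest where the pancreas genes were also lowest.

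Against stomach alone, the nearest tissue, 3133 genes (22.2%) were called higher and 1650 (11.7%) lower, a share of higher calls of 65.5% that became 51.5% (2274 higher and 2141 lower) when the arrays were quantile normalized again, with a median difference of 0.10 before and -0.02 after. Without the 6 arrays of low upper quartile it was 51.2% (2001 higher and 1907 lower). The 5 largest rises were Cyp3a11, Defa39, Prap1, Adh6a and Arg2, with differences from 8.72 to 9.01. Cyp3a11 was 2.37 to 3.41 in the 7 stomach samples and 10.95 to 12.56 in intestine, and Prap1, a proline-rich acidic secreted protein, 2.91 to 4.20 and 12.10 to 12.93 (median 12.29). Prap1 was not particular to intestine, since its uterus mean was 12.15. The 5 largest falls were Pgc, A4gnt, Cldn18, Gsdma2 and Pla2g1b. Pgc, the pepsinogen of gastric glands, was 2.80, 7.66, 2.96, 2.88 and 2.70 in Prom1-negative samples 1, 2, 4, 5 and 6 and 3.02, 2.86 and 3.83 in Prom1-positive samples 1 to 3, and 10.61 to 12.69 in stomach (difference -8.39, SE 0.39, adjusted p = 1.52e-22). In all 5 the highest intestine value was that of Prom1-negative sample 2, at 5.82 to 8.68. These genes were picked for lack of overlap, so that value lay below all 7 stomach samples by rule.

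The difference between Prom1-positive and Prom1-negative cells was itself compared between intestine and the mean of the other tissues. limma called 9 of 14081 genes (0.0639%), 4 with a more positive (0.0284%) and 5 with a more negative (0.0355%) sort difference in intestine, and 869 had an unadjusted p under 0.05. The 5 negative ones were on average higher in Prom1-negative than in Prom1-positive intestine cells: Mcpt2, Ghrl, Afp, Trpa1 and Chst4. Trpa1, an ion channel of enterochromaffin cells, was 4.83, 6.20, 5.97, 6.19 and 5.95 in the Prom1-negative and 4.06, 4.42 and 3.25 in the Prom1-positive samples, without overlap, and at most 3.35 on average in any other tissue (interaction -1.94, SE 0.27, adjusted p = 6.29e-05). Mcpt2, a mucosal mast cell protease, was 7.04, 6.69, 6.77, 7.10 and 6.07 and 3.68, 2.67 and 3.98, also without overlap (interaction -3.42, SE 0.69, adjusted p = 0.0238). Ghrl was 7.88, 9.45, 9.77, 10.16 and 8.91 and 5.92, 7.10 and 6.51 (interaction -2.57, SE 0.43, adjusted p = 0.00212), and Afp, alpha-fetoprotein, 6.41, 8.15, 8.25, 9.08 and 8.29 and 5.27, 5.89 and 5.65 (interaction -2.5, SE 0.49, adjusted p = 0.0232). The interaction was below 0 in 21 of the 21 enteroendocrine genes, with a median of -1.41, where 52.1% of all genes were below 0 and their median was -0.02, and of that list Ghrl alone was called. It was below 0 in 16 of 17 goblet genes (median -1.15), 14 of 14 pan-epithelial (-0.47), 11 of 11 B and plasma cell (-0.70) and 10 of 10 MHC class II genes (-0.57). It was below 0 in only 2 of 12 pancreas (median 2.23), 1 of 15 endothelial (1.14), 3 of 26 cell cycle (0.54) and 0 of 16 fibroblast genes (1.02). The interaction also takes in the sort differences of the other tissues. Pan-epithelial list means in intestine overlapped between the sorts, at 9.21 to 9.61 in Prom1-negative and 9.29 to 9.44 in Prom1-positive samples. MHC class II list means overlapped too (6.30 to 8.07 and 6.16 to 6.70). Those of the goblet, enteroendocrine and B and plasma cell lists did not overlap. Fibroblast and endothelial list means in intestine were 3.54 to 4.53 and 3.37 to 3.76, so there the sort difference is one of values near background. Genes of a list share the same few samples and are not independent, and no test of lists was made. The 4 positive ones, Ptx3, Cpxm1, Flrt2 and Pappa, were near the array median in all intestine samples (2.36 to 4.36), so their sort difference in intestine is one of values near background. All 4 lost their limma call without prostate in the reference (adjusted p = 0.405 to 0.533). They also lost it without uterus (adjusted p = 0.0753 to 0.278). The count of 9 moved between 2 and 26 when single samples were left out: it was 26 without Prom1-negative intestine sample 1, 14 without sample 6, 2 without sample 4 or 5 or without Prom1-positive sample 3, 3 without Prom1-positive sample 2, 24 without prostate Prom1-negative sample 1 and 23 without prostate Prom1-positive sample 1.

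The 357 genes whose 8 intestine values lay above all other normal samples were also read in the 66 tumours, none of which is labelled intestinal, as a description. The median over these genes of the group mean was 9.0 in normal intestine and 5.72 in normal stomach. Among tumours it was highest in hepatocellular carcinoma (5.51, n = 13) and gastric adenocarcinoma (5.40, n = 11) and lowest in B-cell lymphoma (4.05, n = 3). In hepatocellular carcinoma 84 of the 357 genes (23.5%) had at least 1 tumour value inside the range of the 8 intestine samples, in gastric adenocarcinoma 59 (16.5%) and in bronchial papillary adenoma 35 (9.8%). Larger groups have more chances for such a value, so these counts are not compared.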

How the data were processed

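Values were analysed in the log2 RMA form in which the authors deposited them, 1 per probe set; RMA and Partek 6.6 are named in the submitters' processing notes, and the background, summary and batch settings are not given in the sources used here. Per the labels' protocols, RNA was extracted with the PicoPure kit from sorted cells or frozen tissue and labelled with biotin. Of 45141 probe sets, 28898 carry 1 gene symbol, 551 several (not used) and 15692 are unlisted. Each of 17097 genes was represented by its probe set of highest mean over all 117 samples, and 14081 genes above the array median in at least 3 of the 51 sorted arrays were tested with limma 3.58.1 (R 4.3.3, 2-sided, Benjamini-Hochberg over all of them), fitted on 12 tissue and sort means. Single-colour arrays carry no detection calls here, and the number of arrays limits the precision. Gene names follow RefSeq (GRCm38.p6, 28689 probe sets matched). The fit was tested on simulated data for the comparison of intestine with the other tissues (14081 genes): it recovered 80% of 50 genes changed by 1 and 100% of 50 changed by 2 on the log2 scale.

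The genes named were members of 39 gene lists (553 of 645 entries on the array) and Prom1, plus, among called genes, the 25 largest rises and 10 largest falls without overlap between the 8 intestine and 43 other values, the 5 largest each way without overlap against stomach, the 5 largest each way of the sort interaction, and the 10 largest spreads within intestine; predicted genes and clones were passed over. Members and lists were chosen with earlier results of these data known. Xist came in through the spread rule, and Eif2s3y was added after its values were seen. Alternatives covered the probe set rule, the filter, normalization, array weights, the samples and tissues in the fit, the sample code in the titles, the replicate number as a block and each sample left out in turn.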

Additional observations from a re-analysis of the deposited data

Results flagged for a closer look

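Each of 176 named genes was screened among the 5 Prom1-negative intestine samples for a sample far from the other 4. Such a sample was found for 13 (7.39%). The limit used would flag about 5%, or 1 in 20, of independent genes by chance. That rate is no yardstick here, because some genes were named for their spread in these same samples and the genes are not independent. Prom1-negative sample 2 was the highest for 5 of them, the gastric genes Pgc (7.66), Cldn18 (8.16), Gsdma2 (8.66) and Atp4a (8.66) and Mylk (9.75). Prom1-negative sample 4 was the highest for Xist (10.06) and C1qa (8.47). Prom1-negative sample 1 was the highest for Hnf4a (11.47) and the lowest for Trpa1 (4.83) and Ier3 (5.85). Prom1-negative sample 5 was the highest for Myo7b (10.26) and the lowest for E2f1 (3.77), and Prom1-negative sample 6 was the lowest for Retnlb (3.82).

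The sort difference, Prom1-positive minus Prom1-negative, differed between intestine and the mean of the other tissues by a limma interaction term in 9 genes. It was more positive in intestine for Ptx3 (2.29), Cpxm1 (1.97), Flrt2 (1.71) and Pappa (1.13) and more negative for Mcpt2 (-3.42), Ghrl (-2.57), Afp (-2.50), Trpa1 (-1.94) and Chst4 (-1.78), all on the log2 scale.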

How the results depend on the processing

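The count of genes called between intestine and the other tissues (8062) lay between 7391 and 8744 with single samples left out and between 5256 and 10059 over all other alternatives; it was 5256 with Prom1-positive cells only, where stomach gave 2311, prostate 4418 and the count above or below every tissue 657 in place of 1488. With only the samples whose title carries a code of 200 and over, which leaves no prostate sample, stomach gave 3000 and lung 5210. The 9 interaction calls were the least stable count: 2 with genes above the median in most arrays, 2 with quantile normalization repeated, 15 without arrays of low upper quartile, 18 with all 117 samples, 39 without stomach, 31 without liver, 5 without prostate, 5 without uterus, 1209 with array weights, and 2 to 26 with single samples left out. Ghrl was called under every alternative run and Trpa1 under all but the fit to all 117 samples (adjusted p = 0.308); the cause of these shifts was not tested. The numbers in the titles did not pair the samples: same-numbered intestine samples correlated at -0.125 and -0.28 in their deviations from the group means. Pairs with unlike numbers ran from -0.37 to 0.39. Pairing by the sample code was not tested, and the labels do not say whether a positive and a negative sample came from the same dissociation. The main fit took all samples as independent. With the replicate block, 3 interaction genes and 7928 genes of the main comparison were called. Single genes turned against the other tissues as follows: with Prom1-positive cells only Mcpt2 (-0.17), Cybrd1 (-0.049) and Spdef (-0.11), with Prom1-negative cells only Fbln1 (-0.042), without stomach Pgc (0.53), A4gnt (0.28) and Atp4a (0.40), without liver Ezr (-0.13) and Prom1 (-0.45), without prostate Hoxd13 (0.074), and with codes of 200 and over Hoxd13 (0.16). The arrays give no counts, so low signals near the array median limit what can be read as absent.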
